A study of Mus musculus with 12 samples.

Results

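Bcat1, Bcat2, Bckdha, Bckdhb, Dbt, Bckdk and Ppm1k, the genes for the shared first steps of branched-chain amino acid breakdown and their regulators, were followed through 12 RNA sequencing libraries of mouse CD4 T cells. The 7 genes were taken by symbol from the 55450 genes in the tables, and each was present in both tables. They were picked with their values in these libraries known, so their levels and fold changes are given as a description and without p-values. The study compared cells of Pkm2 knockout mice (KO) with cells of wild type mice (WT). Pkm encodes the muscle forms of pyruvate kinase, which makes pyruvate at the end of glycolysis, and Pkm2 is the splice form named M2. Naive T cells, positively selected for CD4 from spleen and lymph nodes, were kept for 24 hours in RPMI medium with human interleukin 7 (IL7, 25 ng/mL), a cytokine that sustains naive T cells. In the stimulated KO and stimulated WT groups, wells were coated as well with anti-CD3 (1 ug/mL) to engage the T cell receptor and with anti-CD28 (2 ug/mL) to engage its costimulatory partner. The resting KO and resting WT groups had IL7 alone. Each group held 3 libraries. The labels give neither the allele nor the driver of the knockout, and no age. Separate animals behind the 3 libraries are not stated either, and p-values therefore reflect the spread between libraries alone.

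Leucine, isoleucine and valine lose their amino group to alpha-ketoglutarate in a reversible step that makes glutamate and a branched-chain keto acid. BCAT1 carries it out in the cytosol and BCAT2 in mitochondria. The keto acids are then decarboxylated, irreversibly, by the mitochondrial branched-chain keto acid dehydrogenase complex. BCKDHA and BCKDHB are the alpha and beta subunits of its decarboxylase, DBT is the acyl transferase core, and DLD is a dehydrogenase shared with the pyruvate and alpha-ketoglutarate complexes. The kinase BCKDK switches the complex off by phosphorylating BCKDHA, and the phosphatase PPM1K removes that phosphate. Leucine is a signal for the growth kinase mTORC1, and Bcat1 is a known activation gene of mouse T cells.

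The upstream sequences of the genes with the largest responses are shown with an upstream sequence of Bcat2, the paralogue of Bcat1. The reason is that Bcat1 was much higher in stimulated than in resting cells while Bckdha and Ppm1k were lower. RefSeq (GRCm38.p6) had entries for 6 of the 7 genes, with 9 start sites between them. Each line below gives the 250 bases before a start, read 5′ to 3′ on the gene's strand, with CpG pairs in capitals.
Bcat1, distal start, chr6:145076158-145076407, minus strand: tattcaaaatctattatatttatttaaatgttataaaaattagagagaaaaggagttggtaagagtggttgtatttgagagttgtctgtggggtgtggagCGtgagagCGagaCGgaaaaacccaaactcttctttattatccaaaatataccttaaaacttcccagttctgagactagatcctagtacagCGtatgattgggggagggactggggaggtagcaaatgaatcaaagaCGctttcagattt
Bcat1, internal start, chr6:145048813-145049062, minus strand: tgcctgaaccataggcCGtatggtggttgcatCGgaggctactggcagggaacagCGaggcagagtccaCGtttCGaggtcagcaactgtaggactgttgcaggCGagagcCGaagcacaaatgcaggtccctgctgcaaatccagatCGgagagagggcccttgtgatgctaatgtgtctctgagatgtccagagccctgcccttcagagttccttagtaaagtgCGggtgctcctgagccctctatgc
Bcat2, chr7:45569903-45570152, plus strand: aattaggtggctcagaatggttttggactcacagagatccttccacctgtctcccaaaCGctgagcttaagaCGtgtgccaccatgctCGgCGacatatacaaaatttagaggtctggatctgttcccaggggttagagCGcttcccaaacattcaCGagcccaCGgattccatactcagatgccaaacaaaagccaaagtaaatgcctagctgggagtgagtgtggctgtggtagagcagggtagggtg
Bckdha, chr7:25658762-25659011, minus strand: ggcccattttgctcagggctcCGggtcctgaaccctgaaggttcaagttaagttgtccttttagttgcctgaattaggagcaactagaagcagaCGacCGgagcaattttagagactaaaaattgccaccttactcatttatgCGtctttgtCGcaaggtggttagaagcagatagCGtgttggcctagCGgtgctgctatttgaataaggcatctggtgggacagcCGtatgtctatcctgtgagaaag
Ppm1k, chr6:57535488-57535737, minus strand: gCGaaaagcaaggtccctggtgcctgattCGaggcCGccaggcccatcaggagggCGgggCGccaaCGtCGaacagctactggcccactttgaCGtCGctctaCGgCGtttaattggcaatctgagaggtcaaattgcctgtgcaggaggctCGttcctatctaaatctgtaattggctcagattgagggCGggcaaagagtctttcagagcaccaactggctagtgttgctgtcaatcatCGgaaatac
The distal Bcat1 window was poor in G and C (37.6%, with 5 CpG pairs), and 8.47% of the 32851 RefSeq windows of this length had a share as low or lower. The internal Bcat1 window had 56.4% G and C with 9 CpG pairs. The Bcat2 window shown had 50.4% with 7, as had another Bcat2 window, chr7:45571029-45571278, which is not shown. The Bckdha window had 47.6% with 8 and that of Ppm1k 54.4% with 14, against medians over all windows of 52.4% and 6 CpG pairs. The E-box CACGTG, the AP-1 motif TGACTCA and the motif TGATGNAA, a pattern read by ATF4 with C/EBP partners, were searched on both strands. The E-box occurred in 6.02% of all windows, the AP-1 motif in 4.46% and TGATGNAA in 3.45%. None of the 3 motifs occurred in any of the 9 windows of these genes, which says only that these letters are not in these windows. Counts were made per gene, so they do not tell which start was used.

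Libraries held 67333490 to 76891786 counts in the stimulated and 63266477 to 72128433 in the resting groups. Pkm, the targeted gene, averaged 1052 ± 14.6 CPM in stimulated KO and 2485 ± 35.5 CPM in stimulated WT cells, and 185 ± 11.7 CPM in resting KO and 455 ± 47.4 CPM in resting WT cells (SD, n = 3). Pkm had a log2 fold change, KO against WT, of -1.23 ± 0.03 (SE) in stimulated and of -1.30 ± 0.08 in resting cells (edgeR adjusted p = 1.4e-08 and 0.0041). The gene's count sums its splice forms, so the M2 form was not measured by itself. CPM values were scaled here by TMM, a method that evens out library composition, over all 12 libraries, and each expresses a count relative to its library's size. None of the 8 CD4 T cell markers was at 0 in any group. Their summed level, in CPM of the unscaled total, was 1986 to 2048 in stimulated KO, 1971 to 2013 in stimulated WT, 3786 to 4017 in resting KO and 3367 to 3851 in resting WT cells. Xist, transcribed in female cells, lay at 822 to 1015 CPM of the unscaled total in every stimulated library and at 0.0577 to 0.0971 CPM in every resting one. Ddx3y, on the Y chromosome, was at 0 counts in every stimulated library and at 158 to 188 CPM in every resting one. Stimulation, these sex-linked transcripts and the table of deposit changed together and cannot be told apart. In bulk RNA, fewer cells of a type and less RNA per cell cannot be told apart either.

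Bcat1 (chr6:144993835-145076184, minus strand, mm10) encodes the cytosolic aminotransferase, and it was close to silent in resting cells and abundant in stimulated ones in both genotypes. In KO cells it had 172.8, 168.1 and 164.5 CPM when stimulated, against 1.05, 1.69 and 1.77 CPM at rest. Stimulated WT cells had 161.5, 177.1 and 178.3 CPM, against 1.01, 1.30 and 1.59 CPM in resting WT cells. All 6 stimulated libraries were far above all 6 resting ones. The counts behind these levels were 10453 to 11737 per stimulated library and 80 to 143 per resting library. The log2 fold change, stimulated against resting, was 6.80 ± 0.17 (SE) in KO cells, or 112-fold, and 7.05 ± 0.17 in WT cells, or 133-fold. Among 17460 genes tested, Bcat1 ranked 45th from the highest fold change in KO cells and 49th in WT cells. An annotated transcript on the opposite strand, Gm26666, overlaps exons of Bcat1 but had 0 counts in every library.

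**Figure D1:**
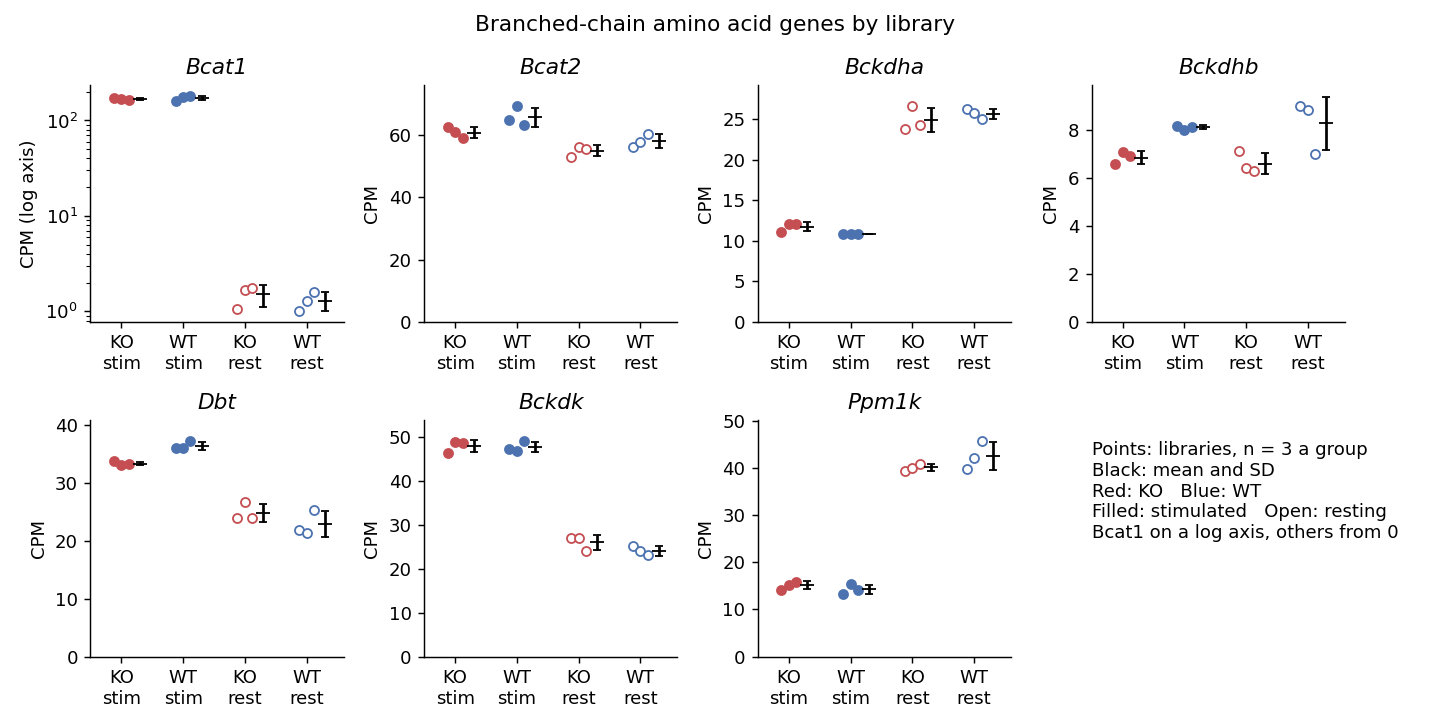
Level of each of the 7 genes in CPM, scaled by TMM over all 12 libraries, by group (KO stim and WT stim, stimulated KO and WT; KO rest and WT rest, resting KO and WT). Points are libraries and black marks the mean and SD of 3; Bcat1 is on a log axis and the others start at 0. Stimulated points of Bcat1, Dbt and Bckdk lie above all resting points, those of Bckdha and Ppm1k lie below them, and those of Bckdhb overlap with them.

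Relative to its mean, resting Bcat1 varied between libraries of a group more than any of the other 6 genes did. Replicate 1 of each genotype was the lowest resting library for Bcat1. Replicate 1 was also the resting library with most erythroid transcripts. The 6 erythroid markers, none at 0 in any group, summed to 1590, 224 and 145 CPM of the unscaled total in resting KO replicates 1, 2 and 3. They summed to 1683, 496 and 56.5 CPM in the same replicates of resting WT cells, and to 14.0 to 24.1 CPM in stimulated KO and 18.2 to 69.7 CPM in stimulated WT cells. Their part in the resting level of Bcat1 was not tested.

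Bcat2 (chr7:45570153-45589711, plus strand), the mitochondrial aminotransferase, was expressed at a similar level in every group. In KO cells it lay between 59.0 and 62.4 CPM when stimulated, against 53.1 to 56.3 CPM at rest. The range in WT cells was 63.2 to 69.1 CPM when stimulated, against 56.1 to 60.3 CPM at rest. Stimulated libraries were thus above the resting ones of the same genotype without overlap, but by a small margin. The log2 fold change was 0.14 ± 0.05 in KO and 0.18 ± 0.05 in WT cells. The direction rests on the scaling. With unscaled library totals, the median of all genes moved by -0.33 in KO and by -0.34 in WT cells on the log2 scale, and Bcat2 was then at -0.18 in KO and -0.16 in WT cells. Relative to the median of all genes, which was -0.11 in KO and -0.14 in WT cells under TMM, Bcat2 stood 0.25 higher in KO and 0.32 higher in WT cells.

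The unequal responses of the 2 aminotransferases changed their balance. Per kilobase of all annotated exons, which allows levels of different genes to be compared, Bcat1 stood at 18.1 CPM per kb in stimulated KO cells and Bcat2 at 15.6. In stimulated WT cells Bcat1 stood at 18.5 and Bcat2 at 16.9 CPM per kb. In resting KO cells Bcat1 stood at 0.16 and Bcat2 at 14.1 CPM per kb, and in resting WT cells at 0.14 and 14.9. Bcat1 therefore made up 53.7 ± 0.135% of the summed level of both genes in stimulated KO cells, against 1.13 ± 0.266% in resting KO cells (SD, n = 3). It made up 52.3 ± 1.64% in stimulated WT cells, against 0.924 ± 0.172% in resting WT cells. Which of the pair was higher after stimulation depends on the transcript length used. With the longest coding transcript of each gene, the Bcat1 share was 42.4 ± 0.133% in stimulated KO and 41.0 ± 1.59% in stimulated WT cells, and 0.720 ± 0.170% in resting KO and 0.589 ± 0.110% in resting WT cells.

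**Figure D2:**
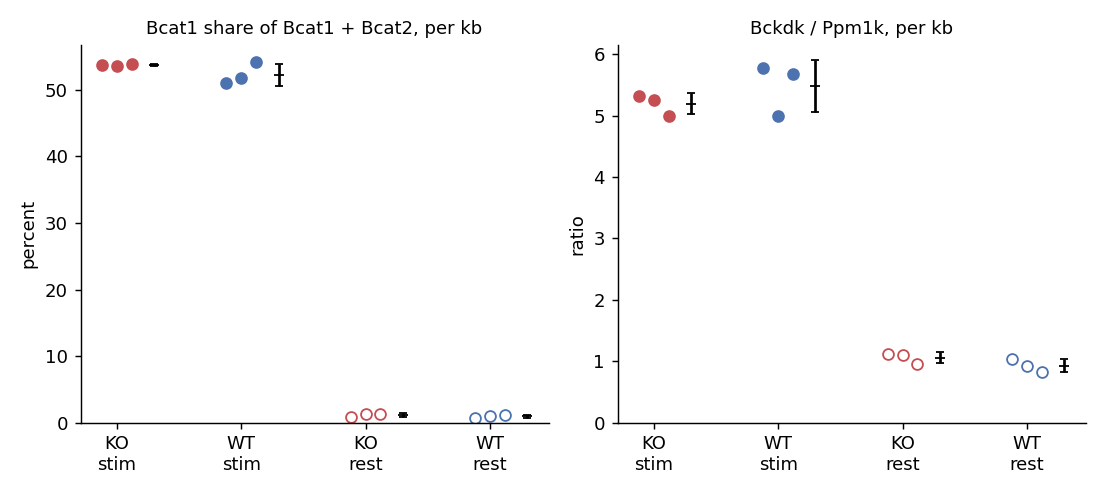
Left, Bcat1 as a percentage of Bcat1 plus Bcat2, and right, the ratio of Bckdk to Ppm1k, both from CPM per kilobase of exons, by group (KO stim, WT stim, KO rest, WT rest). Points are libraries and black marks the mean and SD of 3. The Bcat1 share is 51.0 to 54.1% in the stimulated and 0.747 to 1.32% in the resting libraries, and the ratio is 4.99 to 5.77 in the stimulated and 0.824 to 1.12 in the resting libraries.

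The dehydrogenase subunits did not move as a block. Bckdha (chr7:25629946-25658981, minus strand), the alpha subunit that carries the phosphorylated site, was lower in stimulated cells. In KO cells it had 11.1, 12.1 and 12.1 CPM when stimulated, against 23.8, 26.6 and 24.3 CPM at rest. Stimulated WT cells had 10.87, 10.87 and 10.89 CPM, against 26.3, 25.8 and 25.0 CPM in resting WT cells. No stimulated library reached the lowest resting one. The log2 fold change was -1.08 ± 0.06 in KO and -1.24 ± 0.06 in WT cells, a level 2.11-fold lower in KO and 2.36-fold lower in WT cells. B3gnt8, a glycosyltransferase gene on the opposite strand, overlaps exons of Bckdha, and use of the strand in counting is not given in the sources. B3gnt8 had 2 to 14 counts in the stimulated and 206 to 465 in the resting libraries, while Bckdha itself had 674 to 835 counts in the stimulated and 1864 to 2119 in the resting libraries. Its part in the response of Bckdha was not tested. Markers of other cells were lower in stimulated libraries too, in CPM of the unscaled total. The 8 myeloid markers summed to 50.8 to 53.9 in stimulated KO cells, against 956 to 1004 in resting KO cells, and to 18.2 to 32.7 in stimulated WT cells, against 964 to 2675 in resting WT cells. The 7 B cell markers summed to 258 to 303 in stimulated KO cells, against 612 to 762 in resting KO cells, and to 116 to 200 in stimulated WT cells, against 422 to 732 in resting WT cells. The 4 dendritic cell markers summed to 10.5 to 11.6 in stimulated KO cells, against 39.9 to 54.7 in resting KO cells, and to 5.40 to 8.47 in stimulated WT cells, against 33.9 to 82.4 in resting WT cells. The 4 NK cell markers summed to 12.2 to 14.1 in stimulated KO cells, against 51.7 to 62.4 in resting KO cells, and to 9.28 to 11.3 in stimulated WT cells, against 58.0 to 70.9 in resting WT cells. No marker of these 4 lists was at 0, and their part in the lower levels of Bckdha, and of Ppm1k below, was not tested.

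Bckdhb (chr9:83925145-84124240, plus strand), the partner beta subunit, was at about the same level in stimulated and resting cells. In KO cells it had 6.58, 7.10 and 6.92 CPM when stimulated, against 7.12, 6.43 and 6.30 CPM at rest. In WT cells it had 8.18, 8.03 and 8.16 CPM when stimulated, against 9.001, 8.87 and 7.01 CPM at rest. Libraries of the conditions overlapped in both genotypes, and the log2 fold change was 0.05 ± 0.10 in KO and -0.03 ± 0.10 in WT cells. With unscaled library totals it was -0.27 in KO and -0.37 in WT cells. Per kilobase, the ratio of Bckdha to Bckdhb was 1.63 ± 0.0275 in stimulated KO cells, against 3.59 ± 0.387 in resting KO cells. It was 1.27 ± 0.0127 in stimulated WT cells, against 2.98 ± 0.358 in resting WT cells. The ratio of the 2 subunits was thus closer to 1 in stimulated cells of both genotypes.

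Dbt (chr3:116513070-116549981, plus strand), the core acyl transferase, was higher in stimulated cells. It lay between 33.1 and 33.8 CPM in stimulated KO cells, against 24.0 to 26.7 CPM in resting KO cells. In WT cells it lay between 36.1 and 37.3 CPM when stimulated, against 21.3 to 25.4 CPM at rest. The libraries did not overlap in either genotype. The log2 fold change was 0.42 ± 0.06 in KO cells, or 1.34-fold, and 0.67 ± 0.06 in WT cells, or 1.59-fold. With unscaled library totals it was 0.10 in KO and 0.34 in WT cells. Bckdha and Dbt exchanged their order per kilobase, with a ratio of Bckdha to Dbt of 0.621 ± 0.0344 in stimulated KO and 0.526 ± 0.00913 in stimulated WT cells. At rest the ratio was 1.76 ± 0.0203 in KO and 1.99 ± 0.226 in WT cells.

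The kinase and the phosphatase of the complex moved in opposite directions. Bckdk (chr7:127904082-127910221, plus strand), the inhibitory kinase, had 46.4, 49.0 and 48.8 CPM in stimulated KO cells, against 27.0, 27.1 and 24.1 CPM in resting KO cells. In WT cells it had 47.2, 46.9 and 49.1 CPM when stimulated, against 25.3, 24.0 and 23.1 CPM at rest. All 6 stimulated libraries were above all 6 resting ones. The log2 fold change was 0.88 ± 0.05 in KO cells, or 1.85-fold, and 0.99 ± 0.05 in WT cells, or 1.98-fold. With unscaled library totals it was 0.56 in KO and 0.65 in WT cells.

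Ppm1k (chr6:57506502-57535468, minus strand), the activating phosphatase, was lower after stimulation by more than any of the other 6 genes. In KO cells it had 14.2, 15.2 and 15.9 CPM when stimulated, against 39.4, 40.1 and 40.9 CPM at rest. In WT cells it had 13.3, 15.3 and 14.1 CPM when stimulated, against 39.7, 42.2 and 45.7 CPM at rest. Every stimulated library lay far below every resting one. The log2 fold change was -1.41 ± 0.07 in KO cells, 2.65-fold lower, and -1.58 ± 0.07 in WT cells, 2.98-fold lower. Per kilobase, the ratio of Bckdk to Ppm1k was 5.19 ± 0.172 in stimulated KO cells, against 1.06 ± 0.0850 in resting KO cells. It was 5.48 ± 0.426 in stimulated WT cells, against 0.930 ± 0.107 in resting WT cells. Transcripts of the kinase and the phosphatase were thus about equal at rest and unequal after stimulation in both genotypes.

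**Figure D3:**
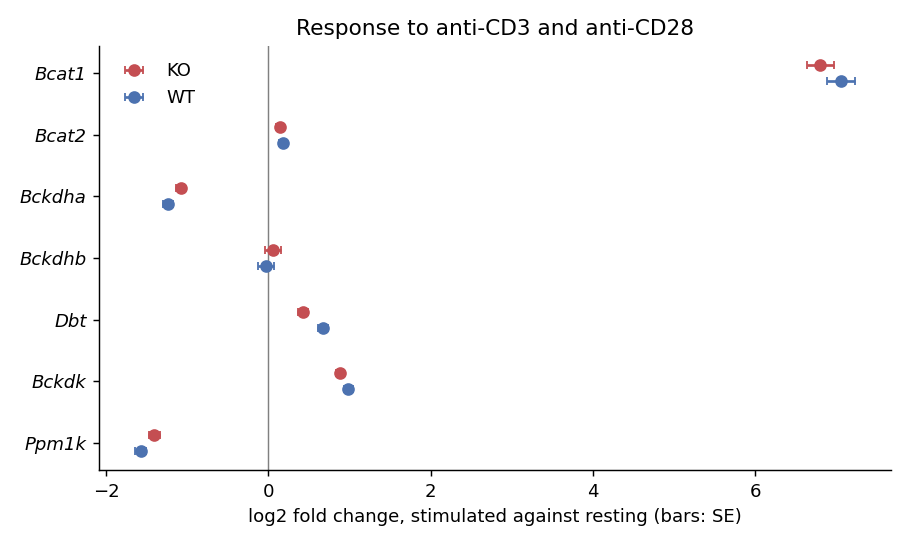
Log2 fold change of the 7 genes, stimulated against resting, in KO (red) and WT (blue) cells, with bars of 1 SE from the fit over 12 libraries. Bcat1 stands at 6.80 in KO and 7.05 in WT cells, the other 6 genes lie between -1.58 and 0.99, and each gene's points of both genotypes lie close together.

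Per kilobase of exons, the order of the 7 genes also changed with stimulation. In stimulated KO and in stimulated WT cells it ran Bcat1, Bcat2, Bckdk, Dbt, Bckdha, Bckdhb and Ppm1k, with Ppm1k at 2.51 CPM per kb in KO and 2.37 in WT cells. In resting KO cells it ran Bcat2, Bckdha, Dbt, Bckdk, Ppm1k, Bckdhb and Bcat1. In resting WT cells Ppm1k stood ahead of Dbt and Bckdk, at 7.06 ± 0.497, 6.84 ± 0.665 and 6.53 ± 0.297 CPM per kb (SD, n = 3). These levels are close for their spread. The order also depends on the transcript length used, and with the longest coding transcripts Bcat1 stood below Bcat2 in stimulated cells. By the adjusted p of edgeR's quasi-likelihood test over all genes, 6 of the 7 genes passed in each genotype, 4 higher (Bcat1, Bcat2, Dbt and Bckdk) and 2 lower (Bckdha and Ppm1k). With unscaled totals, 2 were called higher in KO cells (Bcat1 and Bckdk) and 3 lower (Bcat2, Bckdha and Ppm1k), and Dbt did not pass. In WT cells 3 were then called higher (Bcat1, Dbt and Bckdk) and 4 lower (Bcat2, Bckdha, Bckdhb and Ppm1k). Of all genes tested under TMM, 82.9% passed in KO cells, 39.6% higher and 43.2% lower. In WT cells 84.1% passed, 39.3% higher and 44.8% lower. These shares do not apply to the calls with unscaled totals, where the median of all genes was -0.44 in KO and -0.47 in WT cells. The share of all genes called with unscaled totals is not given here. The 6 genes called under TMM had libraries without overlap between stimulated and resting cells. So had 86.7% of all genes in KO and 84.7% in WT cells. Since the genes were picked with these comparisons known, nothing is read from the counts.

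Between genotypes, log2 fold changes of the 7 genes in both conditions lay between -0.34, for Bckdhb at rest, and 0.21, for Bcat1 at rest. In stimulated cells Bcat1 averaged 168 ± 4.14 CPM in KO and 172 ± 9.38 CPM in WT cells, a log2 fold change of -0.03 ± 0.04. In resting cells it averaged 1.51 ± 0.393 CPM in KO and 1.30 ± 0.291 CPM in WT cells, a log2 fold change of 0.21 ± 0.27. KO and WT libraries of Bcat1 overlapped in both conditions. None of the 7 genes passed in stimulated cells, where 4.76% of all genes did (edgeR; 3 of the 7 at an unadjusted p under 0.05, and 0 by DESeq2's adjusted p). None passed in resting cells either, where 0.0361% of all genes did (1 of the 7 at an unadjusted p under 0.05, and 0 by DESeq2's adjusted p). Of all genes tested, 3103 of 15090 in stimulated and 2284 of 16637 in resting cells were at an unadjusted edgeR p under 0.05.

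In stimulated cells, 4 of the 7 genes had KO libraries that did not overlap with WT libraries, as had 28.0% of all genes tested. Bcat2 averaged 60.8 ± 1.72 CPM in stimulated KO and 65.8 ± 3.05 CPM in stimulated WT cells, a log2 fold change of -0.11 ± 0.04. Bckdhb averaged 6.87 ± 0.266 CPM in KO and 8.12 ± 0.0828 CPM in WT cells, a log2 fold change of -0.23 ± 0.07. Dbt averaged 33.4 ± 0.321 CPM in KO and 36.5 ± 0.689 CPM in WT cells, a log2 fold change of -0.12 ± 0.04. For these 3 genes the highest KO library lay below the lowest WT library, as for 14.6% of all genes. Bckdha was higher instead, without overlap as for 13.4% of all genes, with 11.8 ± 0.546 CPM in KO and 10.9 ± 0.0148 CPM in WT cells and a log2 fold change of 0.12 ± 0.06. Bckdk and Ppm1k overlapped between genotypes, with log2 fold changes of 0.02 ± 0.04 and 0.09 ± 0.07. The sums of the B cell, myeloid, dendritic cell and NK cell markers, given above, were higher in every stimulated KO than in every stimulated WT library. So was that of the 2 CD8 T cell markers, at 28.5 to 32.7 CPM of the unscaled total in KO and 15.4 to 21.0 in WT cells. The erythroid and neutrophil sums overlapped between genotypes. The part of transcripts of other cells in the genotype differences of the 7 genes was not tested.

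In resting cells, KO and WT libraries overlapped for all 7 genes, and did not overlap for 19.9% of all genes tested. Bckdhb had the largest difference, at 6.62 ± 0.441 CPM in resting KO and 8.29 ± 1.12 CPM in resting WT cells, a log2 fold change of -0.34 ± 0.13. The other 6 lay between -0.09 and 0.21. WT replicates 1 and 2, the resting libraries highest in Bckdhb, were also the highest in the 8 myeloid markers. These summed to 2675, 1485 and 964 CPM of the unscaled total in resting WT replicates 1, 2 and 3, and to 956 to 1004 CPM in resting KO cells, with no marker at 0. Their part in the resting difference of Bckdhb was not tested.

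**Figure D4:**
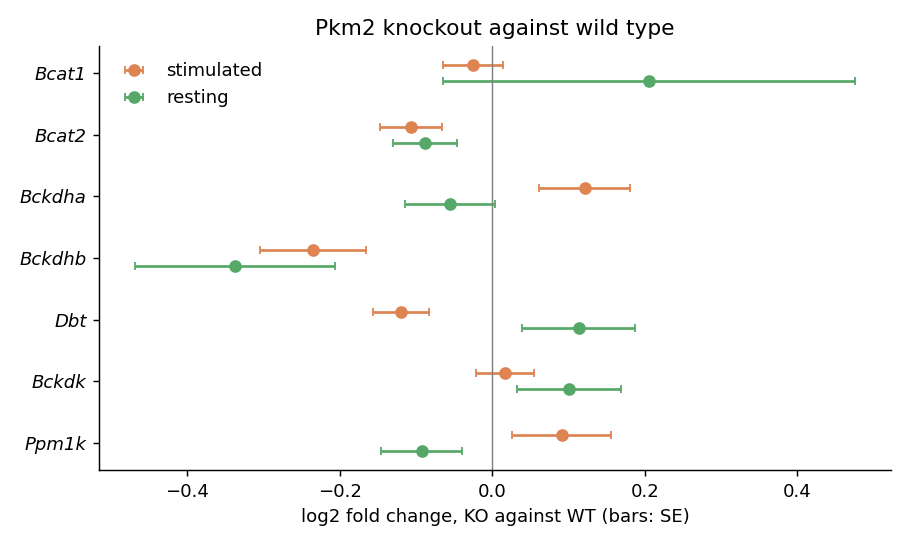
Log2 fold change of the 7 genes, KO against WT, in stimulated (orange) and resting (green) cells, with bars of 1 SE from the fit of each condition. All values lie between -0.34 and 0.21, and Bcat2 and Bckdhb are below 0 in both conditions.

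The responses to stimulation were also set against each other, as the KO response minus the WT response in the same fit. For Bcat1 this difference was -0.25 ± 0.23 on the log2 scale. It was -0.25 ± 0.09 for Dbt, 0.17 ± 0.09 for Ppm1k and 0.16 ± 0.08 for Bckdha. The remaining differences were -0.10 ± 0.07 for Bckdk, 0.08 ± 0.14 for Bckdhb and -0.04 ± 0.06 for Bcat2. None of the 7 passed, where 0.693% of all genes did (edgeR; 1 of the 7 at an unadjusted p under 0.05, and 0 by DESeq2's adjusted p). Of all genes tested, 2772 of 17460 were at an unadjusted edgeR p under 0.05.

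The other genes that handle branched-chain amino acids were taken from 6 lists of 63 genes, of which 58 were tested. Of these, 34 rose, 16 fell and 8 did not pass in stimulated against resting KO cells, and 36 rose, 17 fell and 5 did not pass in WT cells. Of all genes tested under TMM, 39.6% rose and 43.2% fell in KO cells, 82.9% in all. In WT cells 39.3% rose and 44.8% fell, 84.1% in all. The share of list genes that passed in either direction was thus near that of all genes in KO cells and somewhat above it in WT cells. By direction the shares differed: more list genes rose than fell, while more of all genes fell than rose. These shares do not apply to the counts with unscaled totals given below. The share of all genes called there is not given, so nothing is read from those counts. The list genes had a median log2 fold change of 0.48 in KO and 0.58 in WT cells, against -0.11 and -0.14 over all genes tested. The largest rise among them, that of Psat1, was 4.18 in KO and 4.40 in WT cells, below the value of Bcat1. All lists, like the genes followed above, were chosen with earlier results of these data known. The list genes named below were then taken from those with the largest changes among the genes that passed, and not all of these are printed. Their adjusted p-values are therefore given as a description and are not tests of genes fixed beforehand.

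**Figure D5:**
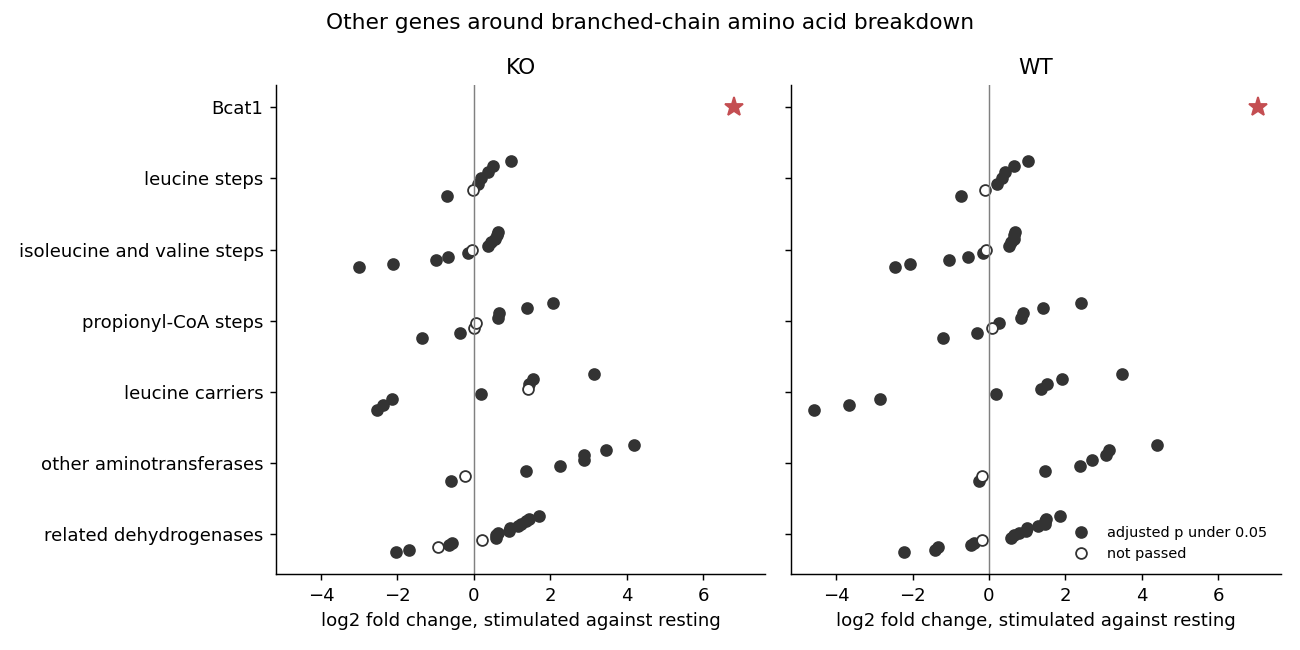
Log2 fold change, stimulated against resting, of the genes in 6 lists around branched-chain amino acid breakdown, with KO cells on the left and WT cells on the right. Filled points passed at an edgeR adjusted p under 0.05, open points did not, and the star marks Bcat1, which is given without a p-value. Bcat1 lies beyond every point of the lists, with the aminotransferase Psat1 next to it.

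Genes of the steps that follow the dehydrogenase were called in both directions. On the leucine branch, 5 of 7 genes rose, 1 fell and 1 did not pass in each genotype, with a median log2 fold change of 0.18 in KO and 0.33 in WT cells. With unscaled library totals the same list gave 2 that rose and 3 that fell in each genotype. Ivd, isovaleryl-CoA dehydrogenase and the first step after the complex, had log2 fold changes of -0.70 ± 0.04 in KO and -0.73 ± 0.04 in WT cells and fell in both (edgeR adjusted p = 3.1e-09 and 1.6e-09). Oxct1, which activates ketone bodies, rose by 0.97 ± 0.07 in KO and by 1.01 ± 0.07 in WT cells (edgeR adjusted p = 3.8e-08 and 2.4e-08).

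On the isoleucine and valine branches, 5 of 11 genes rose, 5 fell and 1 did not pass in each genotype, and with unscaled totals 4 rose and 6 fell in KO and 5 rose and 6 fell in WT cells. The even split under TMM is close to that of all genes given above. Aldh6a1, the methylmalonate semialdehyde dehydrogenase of valine breakdown, fell, with log2 fold changes of -2.12 ± 0.09 in KO and -2.06 ± 0.09 in WT cells (edgeR adjusted p = 8e-11 and 9.9e-11). Acadsb, the short/branched-chain acyl-CoA dehydrogenase of isoleucine breakdown, fell by 1.00 ± 0.05 in KO and by 1.04 ± 0.05 in WT cells (edgeR adjusted p = 1.1e-09 and 6.6e-10). Beyond them, 4 of 8 genes of propionyl-CoA use and its cobalamin cofactor rose in KO and 5 in WT cells, and 2 fell in each. With unscaled totals, 4 rose and 4 fell in KO cells and 4 rose and 3 fell in WT cells. Mmachc, a cobalamin processing gene, rose by 2.07 ± 0.05 in KO and by 2.42 ± 0.06 in WT cells (edgeR adjusted p = 1.7e-12 and 4.6e-13).

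Entry of leucine and the other amino group transfers showed larger changes. Of 8 leucine carrier genes tested, 4 rose and 3 fell in KO cells, and 5 rose and 3 fell in WT cells; with unscaled totals 3 rose and 4 fell in each. Slc7a5, the light chain of the main leucine carrier of activated T cells, averaged 387 ± 9.78 CPM in stimulated KO cells, against 44.0 ± 2.52 CPM in resting KO cells. Its WT average was 395 ± 14.8 CPM when stimulated, against 35.6 ± 7.04 CPM at rest. It rose by 3.14 ± 0.11 on the log2 scale in KO and by 3.47 ± 0.12 in WT cells (edgeR adjusted p = 9.1e-11 and 3.8e-11). Slc43a2, another carrier of branched-chain amino acids, fell by 2.39 ± 0.09 in KO and by 2.84 ± 0.10 in WT cells (edgeR adjusted p = 1.1e-10 and 2.3e-11). Slc7a8 fell, with log2 fold changes of -2.54 ± 0.36 in KO and -4.59 ± 0.39 in WT cells (edgeR adjusted p = 5.7e-05 and 6.7e-07). Slc7a7 fell as well, with -2.13 ± 0.35 in KO and -3.66 ± 0.37 in WT cells (edgeR adjusted p = 0.00015 and 2.4e-06). In resting WT replicates 1, 2 and 3, whose myeloid sums stood in that order from high to low, Slc7a8 had 24.3, 13.5 and 7.55 CPM and Slc7a7 had 20.6, 10.9 and 6.85 CPM. Slc43a2 had 122, 101 and 88.5 CPM in the same libraries, and 83.8 to 86.2 CPM in resting KO cells. The part of myeloid transcripts in the changes of these 3 genes was not tested.

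Most of the other aminotransferases tested, which move amino groups between glutamate and keto acids, also rose. Of 8 tested, 6 rose, 1 fell and 1 did not pass in each genotype, with a median log2 fold change of 2.57 in KO and 2.55 in WT cells, and with unscaled totals 6 rose and 2 fell. Psat1, of serine synthesis, averaged 480 ± 11.4 CPM in stimulated KO cells, against 26.4 ± 1.67 CPM in resting KO cells. Its WT average was 524 ± 8.61 CPM when stimulated, against 24.8 ± 4.26 CPM at rest. It rose by 4.18 ± 0.11 in KO and by 4.40 ± 0.11 in WT cells (edgeR adjusted p = 1.8e-12 and 1.1e-12). Gpt2, the mitochondrial alanine aminotransferase, rose by 3.47 ± 0.15 in KO and by 3.14 ± 0.15 in WT cells (edgeR adjusted p = 1.5e-10 and 3.1e-10).

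Between genotypes, 3 of the 58 list genes fell in stimulated KO against WT cells and none rose (edgeR; 16 at an unadjusted p under 0.05), a share near the 4.76% of all genes that passed. DESeq2 called 6 that fell and 0 that rose, and it called 1133 of all genes where edgeR called 719. Of all genes tested, 3103 of 15090 were at an unadjusted edgeR p under 0.05. Mcee, the epimerase of propionyl-CoA use, averaged 5.28 ± 0.330 CPM in KO and 7.06 ± 0.157 CPM in WT cells and fell by 0.41 ± 0.08 on the log2 scale (edgeR adjusted p = 0.022). Pdha1, a subunit of pyruvate dehydrogenase, fell by 0.13 ± 0.03 (edgeR adjusted p = 0.037) and Psat1 by 0.12 ± 0.03 (edgeR adjusted p = 0.046). Each of these calls was lost when single libraries were left out, that of Mcee in 4 of 6 fits, that of Psat1 in 5 and that of Pdha1 in 4, with edgeR adjusted p values of up to 0.10, 0.21 and 0.14. In resting cells, 0 of the 58 genes passed (edgeR; 8 at an unadjusted p under 0.05, and 3 by DESeq2, all lower). The difference of the responses passed for 0 of the 58 genes (edgeR; 14 at an unadjusted p under 0.05, and 3 higher and 4 lower by DESeq2). Of all genes tested, 2284 of 16637 in resting cells and 2772 of 17460 for the difference were at an unadjusted edgeR p under 0.05. DESeq2 called 518 of all genes at rest and 1012 for the difference, where edgeR called 6 and 121.

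The genes whose pattern was most like that of Bcat1 over the 12 libraries, among 10300 genes with a mean of at least 3 CPM, were Smyd5, Shmt2, Top1mt, Slc25a4 and Rangap1. Likeness was Pearson's r of log2(CPM + 0.5), which was 0.9996 for Smyd5, a SET and MYND domain gene, and 0.9995 for Shmt2, the mitochondrial serine hydroxymethyltransferase. It was 0.9994 for each of Top1mt, the mitochondrial topoisomerase, Slc25a4, an ADP/ATP carrier, and Rangap1, of nuclear transport. The points are 6 stimulated and 6 resting libraries, which also differ from each other in most genes. For deviations from the 4 group means, r with Bcat1 was 0.86 for Smyd5, 0.80 for Shmt2, 0.79 for Top1mt, 0.84 for Slc25a4 and 0.74 for Rangap1, against a median of 0.23 over the 10300 genes. The ranking used the same libraries and so these deviations as well, and nothing is read from these values. Smyd5 averaged 191 CPM in stimulated KO and 194 CPM in stimulated WT cells, against 27.9 CPM in resting KO and 25.8 CPM in resting WT cells.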

How the data were processed

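RSEM expected counts, which need not be whole, were deposited by the authors in 1 table for resting and 1 for stimulated libraries. Per the submitters' processing notes, the tools were RSEM 1.3.1, STAR 2.7.0f, cutadapt 1.18 and bcl2fastq 2.20, and the build mm10. Per the labels' protocols, libraries were made with a stranded messenger RNA kit. The labels give the culture time as 24 hours and as overnight, and the source both as splenocytes and as spleen with lymph nodes. Coordinates came from GENCODE M21.

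Expected counts were rounded; those of the 7 genes were whole in all 12 libraries. Genes kept by filterByExpr (minimum count 10, minimum total 15) were scaled by TMM and tested with the robust quasi-likelihood F-test of edgeR 4.0.16 in R 4.3.3, with Benjamini-Hochberg adjustment over all genes at a threshold of 0.05. Genotypes were compared within each condition, over its 6 libraries. Stimulated cells were compared with resting cells, and the responses with each other, in 1 fit of 4 group means over 12 libraries. Fold changes carry the SE of these fits, and scripts were tested on simulated data. Alternatives were DESeq2 1.42.0, its size factors, other filters, other sets of libraries, a replicate block, each library left out and, chosen after seeing the data, unscaled totals. Replicates of a group differed by more than sampling noise.

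The 7 genes and all lists were chosen with earlier results of these data known. Named list genes were up to 4 per list and comparison with the largest change among those that passed, and not all are printed. Likeness to Bcat1 was ranked without predicted genes, pseudogenes and receptor segments.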

Additional observations from a re-analysis of the deposited data

How the results depend on the processing

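Of the 525 values of the 7 genes recomputed under an alternative, 503 moved by less than 1 SD between replicates, 20 moved by more and 2 counted as reversed. A change of sign counted as a reversal only for a value that had passed in the main fit. Sign changes of the other values are among the 503 and the 20. Both reversals were Bcat2 with unscaled totals, at -0.18 in KO and -0.16 in WT cells, and Bcat1 stood there at 6.48 in KO and 6.72 in WT cells. Bckdhb, which had not passed, went from 0.05 to -0.27 in KO cells with unscaled totals. The 525 values include a fit without edgeR's robust option, which acts on the spread and could hardly move a fold change. Bcat1, KO against WT at rest, stayed there at 0.2055. With a library left out, Bcat1 ran between 6.61 and 6.94 in KO and between 6.89 and 7.23 in WT cells, and its difference of responses between -0.447 and -0.0862. Genes called for KO against WT at rest (6) numbered 518 with DESeq2, 40 without the filter, 161 in the 12-library fit and 2 to 18 with a library left out. In stimulated cells (719) they numbered 1133 with DESeq2, 219 in the 12-library fit and 128 to 1408 with a library left out. For the difference of responses (121) they numbered 1012 with DESeq2, 204 with a filter of 1 CPM and, with a library left out, 27 to 1646, the last without WT resting replicate 3. List genes lower in resting KO cells (0) numbered 3 with DESeq2 and 1 in the 12-library fit. In stimulated KO cells (3) they numbered 6 with DESeq2, 5 without the filter, 1 with unscaled totals, 0 in the 12-library fit and 0 to 8 with a library left out. For the difference of responses, list genes called higher (0) numbered 3 with DESeq2 and 0 to 3 with a library left out, and those called lower (0) numbered 1 with DESeq2 size factors, 4 with DESeq2 and 0 to 8 with a library left out. The cause of these shifts was not tested. Same-numbered KO and WT libraries did not all deviate together (r of -0.23 to 0.39 at rest and -0.07 to 0.19 when stimulated). Between differently numbered ones r ran from -0.46 to 0.38 at rest and from -0.25 to 0.16 when stimulated. These ranges overlap and cannot tell whether the numbers pair libraries, and the main fits did not pair them. With the replicate block, genes called numbered 5 at rest, 997 in stimulated cells, 14442 for stimulation in KO cells against 14467 without it, 14615 in WT cells against 14682, and 95 for the difference of responses. Resting Bcat1 rests on 80 to 143 counts per library.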

Other observations

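Genes of the related pyruvate and alpha-ketoglutarate dehydrogenase complexes and of their kinases and phosphatases were listed for comparison with the branched-chain complex. Of 16, 10 rose and 4 fell in stimulated against resting KO cells, and 10 rose and 5 fell in WT cells. Of all genes tested under TMM, 39.6% rose and 43.2% fell in KO cells, 82.9% in all. For WT cells these shares were 39.3%, 44.8% and 84.1%. The median log2 fold change of the 16 was 0.60 in KO and 0.73 in WT cells, against -0.11 and -0.14 over all genes tested. Dlat, the acyl transferase of pyruvate dehydrogenase and counterpart of Dbt, rose by 1.71 ± 0.05 in KO and by 1.87 ± 0.05 in WT cells (edgeR adjusted p = 5.9e-12 and 2.5e-12). Dld, the dehydrogenase shared by all of these complexes, rose by 1.36 ± 0.04 in KO and by 1.47 ± 0.04 in WT cells (edgeR adjusted p = 2e-12 and 9.5e-13). The pyruvate dehydrogenase kinases, relatives of Bckdk, moved both ways. Pdk3 rose by 1.45 ± 0.07 in KO and by 1.51 ± 0.07 in WT cells (edgeR adjusted p = 2.5e-10 and 1.6e-10). Pdk2 fell by 2.04 ± 0.12 in KO and by 2.23 ± 0.12 in WT cells (edgeR adjusted p = 4e-09 and 1.6e-09), and Pdk1 fell by 1.69 ± 0.07 in KO and by 1.34 ± 0.07 in WT cells (edgeR adjusted p = 1.2e-10 and 1.1e-09). With unscaled totals, 10 of the 16 rose and 5 fell in each genotype. The median of all genes was then -0.44 in KO and -0.47 in WT cells, and the share of all genes called is not given.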
